A study of Mus musculus with 36 samples.

Results

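A set of 87 ventricular genes differed between CUG960 +/–dox and +dox mice but stayed near the +dox level in mice that received MBNL1 and MBNL2 together. They were taken from 55291 gene symbols, of which 654, called the pool here, met the criteria for a difference between +/–dox and +dox left ventricles. The criteria were a difference of at least 0.58 in the group means of log2(TPM + 1), no overlap between the libraries of the 2 cohorts and a mean of at least 1 TPM in the higher cohort, where TPM is a transcript's share of all transcripts after scaling by length. For each of these genes the restored share is the MBNL1+MBNL2 mean minus the +dox mean, as a percentage of the +/–dox mean minus the +dox mean on that log2 scale. The 87 members had a restored share below 30%. They made up 13.3% of the 654 genes, and the other genes of the 654 are the comparison set throughout. Of the members, 54 were lower and 33 were higher in +/–dox than in +dox ventricles. The members were thus selected on the TPM values of the +dox, +/–dox and MBNL1+MBNL2 ventricles, and differences among these 3 cohorts are given as a description, with no test. In the counts, 61 of the 85 members that passed the filter on low counts also met the calling thresholds used below between +/–dox and +dox ventricles, where 6.60% of all genes did, and nothing is read from this.

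All animals carried the same 2 transgenes, TREDT960I (homozygous) and MHCrtTA (hemizygous). TREDT960I holds interrupted CTG repeats in the human DMPK gene, under a promoter that responds to doxycycline (dox), and the α-MHC promoter (Myh6) drives the reverse tetracycline transactivator in cardiomyocytes. The +dox cohort was fed dox from postnatal day 1 until 21 weeks of age and received no vector in the RNA sequencing experiment, the –dox cohort never received dox, and the +/–dox cohort received it from postnatal day 1 to 9 weeks. The 3 cohorts given MBNL1, MBNL2 or both received dox throughout, and at 9 weeks a tail vein injection delivered AAV9 vectors that express tagged human MBNL cDNAs from the human TNNT2 promoter, 12 weeks before tissue was taken. Left ventricular and atrial RNA of 3 animals per cohort, 6 cohorts in all, gave 36 libraries, with up to 97.1 M expected counts and a median of 72.1 M. The MBNL1+MBNL2 animals were all male, while each other cohort had 1 female of 3, and all MBNL1+MBNL2 libraries fell in the second of 2 sets of library numbers, which otherwise held only replicate 3. Sex, library set and the combined treatment therefore cannot be told apart for this cohort. Replicate 1 of the ventricular MBNL1 cohort had counts above 0 for 16885 genes, against 20578 to 24041 in the other ventricular libraries. Ventricular libraries had 14193 to 20122 TPM of Myl2 and atrial ones 29 to 581, whereas Sln was at 1.95 to 32.0 TPM in ventricles and 1288 to 1774 in atria, so each tissue carried the markers of its label.

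In myotonic dystrophy type 1, CUG repeat RNA binds MBNL proteins and withdraws them from their normal targets. MBNL1 and MBNL2 are RNA-binding proteins that bind YGCY motifs, where Y is C or U, and control alternative splicing, polyadenylation, localization and stability of transcripts. Taking these mice off dox stops production of the repeat RNA, whereas the vectors add MBNL while it is still made. Levels of a gene can also differ in whole tissue because the number of cells that express it differs, and fewer cells of a type cannot be told apart from less RNA per cell in these libraries.

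The median restored share of the members was 10.4% (lower and upper quartile -1.15% and 23.4%), against 67.2% in the other genes. For 26 members the share was below 0, which means that the MBNL1+MBNL2 mean lay on the far side of the +dox mean, and for 61 it was between 0 and 30%. The size of the +/–dox difference did not set the members apart, with a median of 0.73 on the log2 scale in the members and 0.75 in the other genes, and their levels were somewhat lower, with a median of 7.75 against 10.7 TPM in the higher cohort. Just inside the 30% limit were Pigw (29.9%), Aqp4 (29.9%) and Olfml2b (29.8%), and just outside were 1500015A07Rik (30.4%), Gm14412 (31.0%) and Hagh (31.0%). Insl6, Gm41717 and Mcts2 were the members nearest the limit on the difference, at -0.58, 0.58 and -0.59, while D330023K18Rik, Reep2 and Slc35g1 missed it at -0.58, -0.57 and -0.57.

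**Figure D1:**
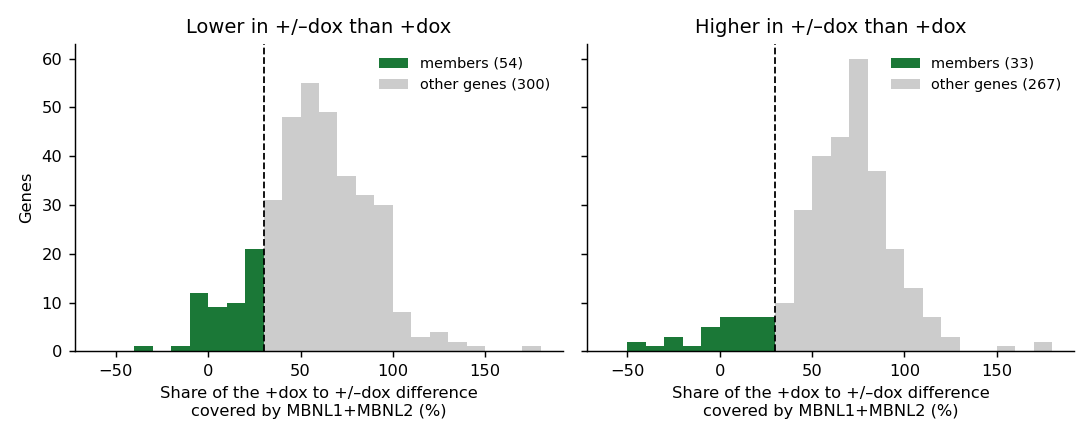
Number of genes by the share of the +dox to +/–dox difference covered by the MBNL1+MBNL2 cohort (x axis, %, values beyond the ends drawn in the last bars), for genes lower (left) and higher (right) in +/–dox ventricles. The 54 and 33 members (green) lie left of the dashed line at 30%, which the rule fixed, in the tail of a distribution whose other genes (gray) have a median of 67.2%.

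The 3 MBNL1+MBNL2 ventricles did not have the same position. Over the members, the median position between the +dox mean (0%) and the +/–dox mean (100%) was 38.4% in replicate 1, -7.72% in replicate 2 and 1.23% in replicate 3. Replicate 1 was thus nearer the +/–dox level than the other two, and the same held for the other genes of the pool, at 92.6%, 63.6% and 48.2% in the 3 libraries. Membership depended on these libraries, as 45 members met the rule whichever MBNL1+MBNL2 library was left out, and without replicate 1 the rule took 163 genes, 84 of them members. Leaving out each of the 9 libraries of the rule in turn, 26 members were kept in every run, 13 lower and 13 higher in +/–dox. Among them were Vxn, Nudt5, Anxa5, Uchl1 and Mllt11 on the lower side and Eno1b, Depp1, Ppil1 and Lrrc4b on the higher side. The 26 also held Gm13370 and Gm10240 on the lower side and Hba-a1, Hbb-bs, Hbb-bt and Alas2 on the higher side. These are among the members doubted below, so being kept in every run does not clear a member of such doubts. With normalised counts per library in place of TPM, which do not depend on transcript length, the rule kept 53 of the 87 members.

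Each vector alone was also compared, as a description, since these shares use the +dox and +/–dox libraries of the rule. The median restored share of the members was 29.2% in the MBNL1 cohort and 18.6% in the MBNL2 cohort, against 61.2% and 53.3% in the other genes. The share was under 30% for 45 members in the MBNL1 cohort and for 64 in the MBNL2 cohort, which compares with 9.17% and 20.3% of the other genes. In the MBNL2 cohort the members lower in +/–dox had a median share of 5.04% and those higher in +/–dox 29.4%. In the MBNL1 cohort the order was the reverse, 35.5% and 23.8%. The MBNL1 ventricles had a median position over the members of 42.7%, 25.2% and 19.9% in replicates 1, 2 and 3. Replicate 1 was the library with the fewest genes above 0. Some lower members were listed at 0 in it, among them Gm28052, Gm13370 and Gm10240. How far this library set the MBNL1 shares and their order was not tested. In –dox ventricles, which never made the repeat RNA, the median share was 90.7% for the members and 94.9% for the other genes, and 5 members were under 30%. Most members therefore had similar levels in both cohorts without repeat RNA at the time of sampling.

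**Figure D2:**
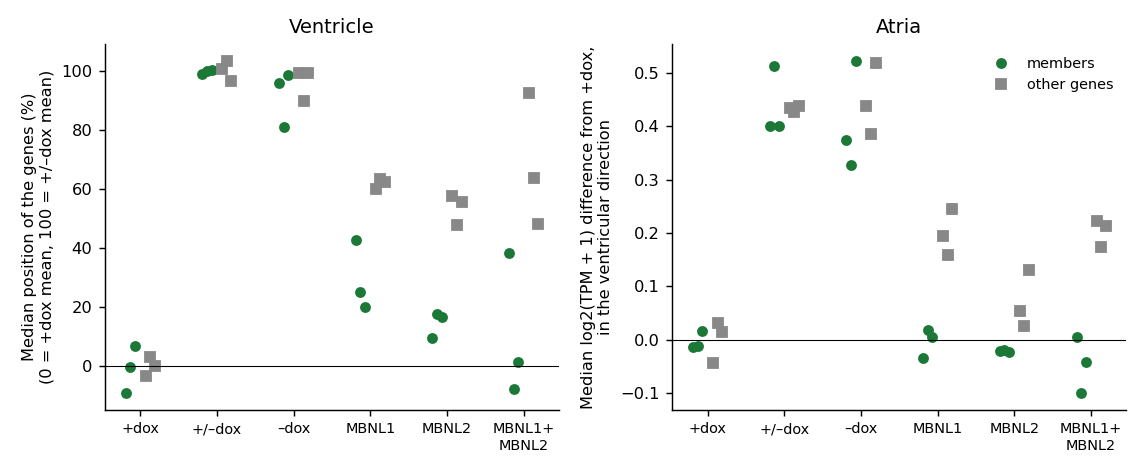
Median position of the 87 members (green circles) and of the other genes (gray squares) in each library, 3 per cohort, for the ventricle in % of the +dox to +/–dox difference (left) and for the atria as the log2(TPM + 1) difference from the +dox mean, counted as positive in the direction of the ventricular difference (right). In the MBNL1+MBNL2 ventricles, which chose the members, these lie between -7.72% and 38.4%, and in the MBNL1+MBNL2 atria, which did not, between -0.10 and 0.01.

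Vxn (vexin, a protein known from neural differentiation; chr1:9601199-9627143, plus strand, mm10) had the largest difference of the protein-coding members. Its ventricular level was 9.71, 8.95 and 11.2 TPM in +dox mice and 1.82, 1.39 and 1.63 TPM in +/–dox mice. In –dox mice it was 1.96, 1.41 and 1.63 TPM. It was 9.87, 9.55 and 10.8 TPM with MBNL1, 10.4, 9.86 and 10.7 TPM with MBNL2 and 8.79, 10.6 and 12.4 TPM with both. All 12 libraries of the cohorts on dox lay above all 6 libraries of the cohorts without repeat RNA, and the 4 cohorts on dox overlapped each other. Nudt5, an ADP-sugar pyrophosphatase (chr2:5845019-5871895, plus strand), had the same order, with 14.0 to 16.0 TPM in +dox, 4.49 to 6.68 in +/–dox, 4.28 to 5.21 in –dox and 11.2 to 14.95 TPM in the cohorts that received MBNL.

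Anxa5, the phosphatidylserine-binding annexin A5, was the most abundant of the lower members besides Pnrc2. It stood at 99.7, 87.7 and 90.1 TPM in +dox, at 52.0, 56.6 and 59.1 TPM in +/–dox and at 79.7, 101 and 84.6 TPM in MBNL1+MBNL2 ventricles. Uchl1, a ubiquitin hydrolase of neurons that diseased muscle can also express, was at 37.7, 31.1 and 20.0 TPM in +dox, 15.4, 16.8 and 14.9 TPM in +/–dox and 22.3, 27.8 and 32.8 TPM in MBNL1+MBNL2 ventricles. Its MBNL1+MBNL2 libraries all lay within the wide +dox range. Padi2, which converts arginine to citrulline in proteins, was at 3.18 to 4.62 TPM in +dox, 0.93 to 1.71 in +/–dox, 0.50 to 0.83 in –dox and 3.76 to 4.26 TPM in MBNL1+MBNL2 ventricles. Ppp1r1a, an inhibitor of protein phosphatase 1, was at 3.21 to 5.79, 2.12 to 2.78, 1.26 to 1.38 and 2.68 to 5.03 TPM in the same 4 cohorts. For Padi2 and Ppp1r1a the –dox libraries lay below the +/–dox libraries, which lay between the –dox and +dox libraries. Ptprf, a receptor protein tyrosine phosphatase, had 5.81 to 6.67 TPM in +dox, 2.46 to 2.63 in +/–dox and 3.96 to 6.80 TPM in MBNL1+MBNL2 ventricles.

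Among secreted or signalling proteins on the lower side, C4b (complement C4) was at 9.15 to 14.3 TPM in +dox and 5.15 to 6.87 in +/–dox, and reached 12.3 to 23.3 TPM in the MBNL2 cohort. Agt, the precursor of angiotensin, was at 6.63, 6.54 and 3.6 TPM in +dox, 2.71 to 3.18 in +/–dox and 3.73 to 6.75 TPM in MBNL1+MBNL2 ventricles. Npr3, the clearance receptor for natriuretic peptides, was at 9.02 to 14.9, 5.96 to 7.24 and 8.45 to 14.0 TPM in the same cohorts. Gdf15, a stress-induced cytokine, was low, at 2.69 to 3.65, 0.76 to 1.21 and 1.86 to 3.29 TPM. The MBNL1+MBNL2 libraries of these 4 genes overlapped the +dox range, although for C4b they spread widely, at 6.89 to 20.8 TPM, and the lowest lay next to the highest +/–dox library. Pnrc2, a nuclear receptor coactivator, differed between TPM and counts. Its TPM differed by -0.81 on the log2 scale between +/–dox and +dox, whereas the fitted difference in counts was -0.31, and its 3 +dox libraries ranged from 60.9 to 153 TPM. In the counts the fitted MBNL1+MBNL2 level differed by -0.41 from +dox and by -0.10 from +/–dox, so Pnrc2 was not left near the +dox level there. Pnrc2 was 1 of 34 members that did not meet the rule with normalised counts. Gdf15, Ptprf, Phtf2, Slc16a6, Serf1, Ccl27a and Pigw were others. TPM is scaled by the transcript lengths that RSEM estimated, so a different mix of transcripts can move TPM without a like change in counts.

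**Figure D3:**
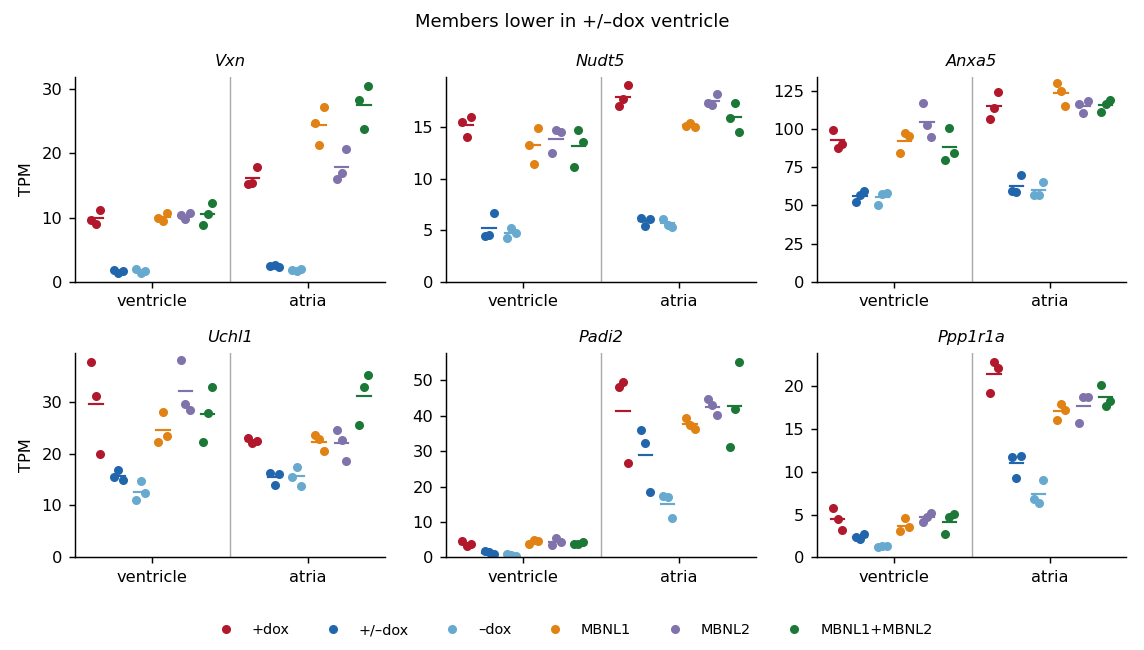
TPM (y axis) of 6 members lower in +/–dox ventricles, in 3 libraries (points) of each cohort with their mean (bar), in the ventricle and the atria. In both tissues the Vxn and Nudt5 libraries of the 4 cohorts on dox lie above those of the +/–dox and –dox cohorts.

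On the higher side, Tnnt2 (cardiac troponin T) was by far the most abundant member. Its level was 4859, 4937 and 4662 TPM in +dox, 7540, 7469 and 7419 TPM in +/–dox, 6766, 6184 and 6992 TPM in –dox and 5577, 5491 and 4510 TPM in MBNL1+MBNL2 ventricles. The human counterpart of its promoter is the one in the AAV9 vectors. Lad1 (ladinin 1, an anchoring filament protein) lies 3012 bases upstream of Tnnt2 on the same strand (chr1:135818598-135833342 for Lad1 and chr1:135836354-135852260 for Tnnt2). It was at 0.40, 0.70 and 0.67 TPM in +dox, 1.25, 1.51 and 1.81 TPM in +/–dox, 4.54, 3.71 and 3.84 TPM in –dox and 1.06, 1.08 and 0.39 TPM in MBNL1+MBNL2 ventricles. Both genes had all of their MBNL1+MBNL2 libraries below all +/–dox libraries, but only Lad1 had –dox libraries well above the +/–dox ones.

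Kcnip2 encodes KChIP2, the auxiliary subunit of the transient outward potassium channel. It was at 21.2, 22.2 and 39.5 TPM in +dox, 43.8, 43.2 and 45.2 TPM in +/–dox, 51.1, 46.7 and 60.4 TPM in –dox and 34.7, 30.7 and 21.0 TPM in MBNL1+MBNL2 ventricles. The third +dox library was far above the other two and close to the +/–dox libraries. Rbfox1, a splicing regulator of heart and brain, was at 5.08 to 9.17 TPM in +dox, 12.8 to 16.5 in +/–dox and 12.3, 6.15 and 7.95 TPM in MBNL1+MBNL2 ventricles, where replicate 1 stood apart. Rpl3l, a ribosomal protein restricted to striated muscle, was at 120 to 134 TPM in +dox, 177 to 219 in +/–dox and 116 to 160 TPM in MBNL1+MBNL2 ventricles. Tmod4, a muscle tropomodulin that caps thin filaments, was at 7.45 to 15.1, 15.6 to 21.5 and 7.66 to 17.0 TPM, and Mid1ip1, a regulator of fatty acid synthesis, at 38.4 to 39.9, 64.3 to 66.2 and 40.9 to 48.7 TPM in the same cohorts. Of these, Mid1ip1 had MBNL1+MBNL2 libraries entirely above its +dox range.

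Nr1d1, which encodes the clock repressor REV-ERBα, did not follow the repeat RNA. It was at 20.3, 17.5 and 21.5 TPM in +dox, 38.8, 35.4 and 39.4 TPM in +/–dox and 19.1, 12.0 and 21.0 TPM in –dox ventricles. It was at 41.7, 37.1 and 23.7 TPM with MBNL1, 52.4, 32.6 and 41.4 TPM with MBNL2 and 34.5, 6.66 and 18.1 TPM with both. The –dox libraries thus lay at or below the +dox level, while every MBNL1 and MBNL2 library lay above the +dox range and 3 of these 6 above the +/–dox range. The atria gave a like order, with 29.97, 20.3 and 44.6 TPM in –dox and 56.1, 50.7 and 63.4 TPM in +/–dox. Nr1d1 was the only one of 19 circadian clock genes among the 654, and the hour at which tissue was taken is not given in the sources used here.

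**Figure D4:**
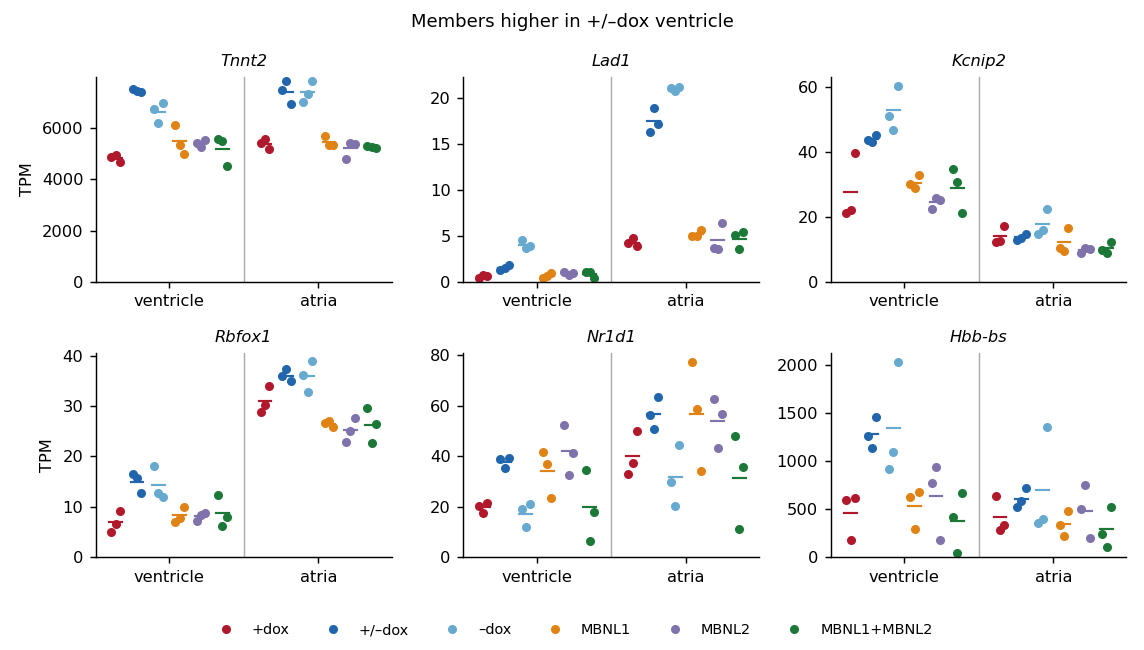
TPM (y axis) of 6 members higher in +/–dox ventricles, in 3 libraries (points) of each cohort with their mean (bar), in the ventricle and the atria. The Tnnt2 and Lad1 libraries of the 4 cohorts on dox lie below those of the +/–dox and –dox cohorts in both tissues, while Nr1d1 is high in the +/–dox, MBNL1 and MBNL2 cohorts and Hbb-bs spreads widely within cohorts.

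Of the 87 members, 9 were doubted after their values were seen, for 3 kinds of reason. The first kind was red blood cell genes, Hba-a1, Hbb-bs and Hbb-bt (hemoglobin chains) and Alas2 (the first enzyme of erythroid heme synthesis). These were 4 of the 6 genes on the red blood cell list, and the fifth, Hba-a2, was among the other genes. The summed level of the list was 393 to 1243 TPM in +dox, 2354 to 2934 in +/–dox, 1842 to 4147 in –dox, 613 to 1337 in MBNL1, 369 to 1895 in MBNL2 and 93.4 to 1366 TPM in MBNL1+MBNL2 ventricles. Spread within cohorts was large, and the 4 genes passed no test given below. How much blood each sample held was not tested. Summed macrophage markers, a list of 15 genes without a member, were at 209 to 336 TPM in +dox, 206 to 273 in +/–dox and 263 to 342 TPM in MBNL1+MBNL2 ventricles, which overlap. Other marker lists, also without a member, did separate some of these cohorts. Summed endothelial markers (12 genes) were at 396 to 444 TPM in +dox, 508 to 523 in +/–dox and 404 to 579 TPM in MBNL1+MBNL2 ventricles, and Schwann cell and neuron markers (8 genes) at 3.27 to 4.52, 5.89 to 7.42 and 4.42 to 4.88 TPM. Fibroblast and matrix genes (31) were at 989 to 1266, 1158 to 1362 and 1293 to 1629 TPM and fat markers (8) at 11.5 to 21.41, 19.7 to 23.2 and 21.43 to 23.5 TPM, so that the MBNL1+MBNL2 cohort lay above +dox for both. Smooth muscle and pericyte markers (9) were at 195 to 254, 222 to 260 and 202 to 221 TPM, with the MBNL1+MBNL2 cohort below +/–dox. The part of these cell types in the members' values was not tested.

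The second kind was genes on chromosome 4, among them Dctn3 (a dynactin subunit) and Ccl27a (a chemokine). Dctn3 was at 22.8, 11.8 and 12.8 TPM in +/–dox and 20.3, 19.6 and 10.7 TPM in –dox ventricles, against 19.7 to 27.2 TPM in the 12 libraries of the cohorts on dox. The atrial values had the same pattern, with 28.7, 14.4 and 15.4 TPM in +/–dox, 26.7, 25.5 and 14.6 TPM in –dox and 29.3 to 36.9 TPM in the other 12 libraries. In both tissues Dctn3 was thus low in +/–dox replicates 2 and 3 and in –dox replicate 3. Ccl27a was at 5.45 to 6.70 TPM in those 3 ventricular libraries, against 6.52 to 18.1 TPM in the other 15, which overlap, and at 7.96 to 9.63 TPM in those 3 atrial libraries, below all of the other 15. Ccl27a was also lower in the –dox cohort as a whole than in the 12 libraries of the cohorts on dox. In ventricles it was at 5.63 to 8.07 TPM in –dox, against 9.40 to 18.1 TPM in those 12. In atria it was at 9.63 to 14.3 TPM in –dox, against 16.15 to 24.3 TPM. For Dctn3 the lowest values lay in single animals of the +/–dox and –dox cohorts. Whether these animals differ in the genome near these genes was not tested.

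**Figure D5:**
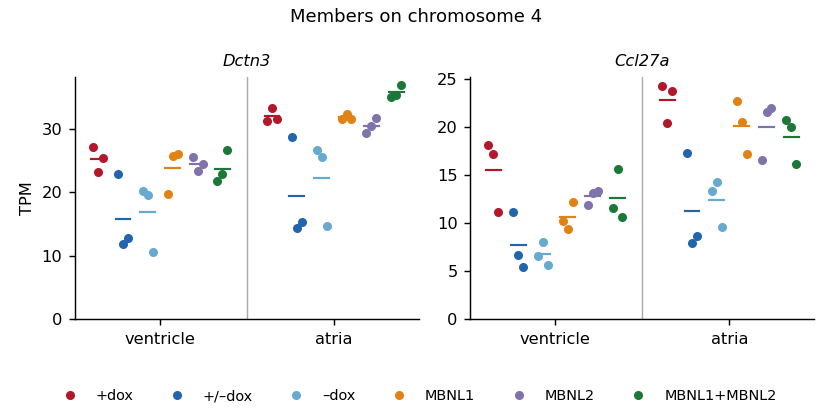
TPM (y axis) of Dctn3 and Ccl27a in 3 libraries (points) of each cohort with their mean (bar), in the ventricle and the atria. For Dctn3 in the atria, +/–dox replicates 2 and 3 and –dox replicate 3 lie at 14.4 to 15.4 TPM, below the other 15 libraries.

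The third kind was a pair, Gm13370 and Gm10240, with identical TPM in all 36 libraries, so their reads could not be assigned to one or the other. They were listed at 0 in all 3 +/–dox ventricles and in replicate 1 of the MBNL1 ventricles, and at 5.44 to 68.6 TPM in the other 14, the –dox ventricles included, so no fold is given. In the atria they were listed at 0 in 2 +/–dox libraries and at 4.96 TPM in the third, against 50.9 to 111 TPM elsewhere.

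Comparisons whose libraries the rule did not use could be tested. The first asked how far the members in MBNL1 or MBNL2 ventricles were from ventricles that never made repeat RNA. In MBNL1 against –dox ventricles, 22 of the 85 members that passed the filter on low counts were called (edgeR's quasi-likelihood test, Benjamini-Hochberg adjusted p below 0.05 over 19231 genes and a fold change of at least 1.5). Of all genes tested 2.61% were called. Of the 54 members lower in +/–dox, 16 were higher in MBNL1 than in –dox mice (1.12% of all genes were called higher), and of the 31 tested members higher in +/–dox, 6 were lower (1.49% of all genes were called lower). In MBNL2 against –dox ventricles 34 members were called (3.47% of all genes), 24 of the lower members as higher (2.13%) and 10 of the higher members as lower (1.34%). Among the other genes of the pool that were tested, 86 of 565 were called against –dox in the MBNL1 cohort (15.2%) and 138 in the MBNL2 cohort (24.4%), whereas 25.9% of the tested members were called in the MBNL1 cohort. That the members sit further from –dox is in part fixed by their choice, since the +/–dox cohort resembles the –dox cohort.

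Of the calls, 16 of the 22 against –dox in the MBNL1 cohort and 25 of the 34 in the MBNL2 cohort held whichever library was left out. The largest were Padi2 (log2 fold change 2.67 ± 0.33 SE, adjusted p 1.82e-05 in MBNL1 and 2.59 ± 0.33, adjusted p 1.63e-05 in MBNL2), Vxn (2.52 ± 0.13, adjusted p 5.87e-15 and 2.45 ± 0.13, adjusted p 1.26e-14) and Ppp1r1a (1.40 ± 0.20 and 1.63 ± 0.20). Nudt5 was higher by 1.26 ± 0.10 and 1.25 ± 0.10, Adap1, a GTPase-activating protein for ARF, by 1.35 ± 0.14 and 0.94 ± 0.14, Ptprf by 1.12 ± 0.14 and 1.29 ± 0.14, and Anxa5 by 0.67 ± 0.08 and 0.74 ± 0.08. On the other side Lad1 was lower by -2.67 ± 0.28 in MBNL1 and -2.32 ± 0.27 in MBNL2 mice, Kcnip2 by -0.98 ± 0.19 and -1.29 ± 0.19, and Rbfox1 by -0.90 ± 0.19 and -1.05 ± 0.19. C4b was called in MBNL2 mice (1.64 ± 0.35, adjusted p 0.00312) and not in MBNL1 mice (0.62 ± 0.34, adjusted p 0.288), but the difference of MBNL1 from MBNL2 did not pass the test (-1.02 ± 0.34, adjusted p 0.323).

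No member was called between the MBNL1 and MBNL2 ventricles, where 3 genes of all tested were called (0.0156%). At an unadjusted p below 0.05, 10 members and 2004 of all genes passed in edgeR, and DESeq2 called 0 members and 27 genes in all. The median log2 difference over the members was -0.14.

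The atria came from the same animals, so they are other samples and not other animals. In –dox against +dox atria 30 members were called (5.23% of all genes), 21 of them lower (2.40%) and 9 higher (2.83%). In +/–dox against +dox atria 28 were called (3.99%), 20 lower (1.98%) and 8 higher (2.01%). Of the members lower in +/–dox ventricles, 2 were called higher in –dox atria and 1 in +/–dox atria, opposite to the ventricle. Gm28052 was called higher in both comparisons, but it was listed at 0 in all +dox atria, so no fold is given. The other genes of the pool were called at like rates, 33.1% for –dox and 32.0% for +/–dox against 35.3% and 32.9% of the members. The direction in +/–dox atria was that of the ventricle for 72 of the 87 members (82.8%) and for 94.4% of the other genes. Of these 28 calls, 17 held whichever atrial library was left out, but without replicate 1 of the +dox atria 18 members in all were called.

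Vxn fell by 3.12 ± 0.13 on the log2 scale in –dox and by 2.63 ± 0.13 in +/–dox atria, and Nudt5 fell by 1.54 ± 0.10 and 1.45 ± 0.10. Anxa5 fell by 0.91 ± 0.08 and 0.81 ± 0.08, and Hyal1, a hyaluronidase, by 1.18 ± 0.14 and 0.76 ± 0.14. Phtf2 fell by 0.81 ± 0.11 and 0.93 ± 0.11, and Slc16a6, a monocarboxylate transporter family member, by 0.66 ± 0.11 and 0.85 ± 0.11. Lad1 rose by 2.33 ± 0.26 and 2.09 ± 0.26, the uncharacterized transcript Gm36827 by 2.84 ± 0.35 and 2.33 ± 0.37, Tbc1d10c, a calcineurin and Ras inhibitor, by 1.56 ± 0.30 and 1.39 ± 0.30, Tmod4 by 0.93 ± 0.24 and 1.04 ± 0.24, and Rpl3l by 1.04 ± 0.17 and 0.93 ± 0.17. Tnnt2 differed by 0.48 ± 0.09 and 0.52 ± 0.09 with adjusted p of 0.000479 and 0.000228 but missed the fold limit in both. Kcnip2, at 12.2 to 17.2 TPM in +dox atria, did not pass in +/–dox atria (0.20 ± 0.19, adjusted p 0.563), and in –dox atria it passed on the adjusted p but missed the fold limit (0.58 ± 0.19, adjusted p 0.0361). Mthfd2, a mitochondrial folate enzyme, was at 9.35, 8.47 and 2.06 TPM in –dox atria against 1.71 to 3.01 TPM in +dox atria, a log2 difference of 1.60 ± 0.36 (adjusted p 0.00283) that rests on 2 of the 3 –dox libraries and is opposite to the ventricle.

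With both vectors, 1 member was called against +dox atria (0.260% of all genes were called, 0.177% higher and 0.0832% lower), compared with 24 of 565 tested genes of the rest of the pool (4.25%). That member was Vxn, at 15.3, 15.3 and 17.9 TPM in +dox and 28.3, 23.8 and 30.5 TPM in MBNL1+MBNL2 atria. The 2 cohorts did not overlap, and the difference of 0.72 ± 0.12 (adjusted p 0.000899) pointed away from the +/–dox level of 2.27 to 2.68 TPM. Atria with MBNL1 alone had 21.3 to 27.2 TPM of Vxn. At an unadjusted p below 0.05, 14 of the 85 tested members passed, against 192 of 565 other genes of the pool and 1924 of all genes tested. DESeq2 called 96 genes, 3 of them members, Vxn, Mthfd2 and Gm28052, the last of which was listed at 0 in all +dox atria.

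Against +/–dox atria, the MBNL1+MBNL2 atria differed in 25 members (1.71% of all genes), 17 of the lower members as higher (0.842%) and 8 of the higher members as lower (0.863%). Of the other genes of the pool 71 were called (12.6%), against 29.4% of the members. The median log2 difference was 0.65 in the 54 lower members and -0.60 in the 31 higher ones, and 0.33 and -0.26 in the other genes. Of these 25 calls, 16 held whichever library was left out, among them Vxn (3.35 ± 0.13), Nudt5 (1.22 ± 0.10), Uchl1 (0.92 ± 0.19), Serf1, a modifier of protein aggregation (0.98 ± 0.20), Anxa5 (0.77 ± 0.08), Metrn, the secreted protein meteorin (0.71 ± 0.15), Lad1 (-2.01 ± 0.25), Tbc1d10c (-1.37 ± 0.30) and Cyb5r2, a cytochrome b5 reductase (-0.97 ± 0.19). Tnnt2 was lower by -0.60 ± 0.09 (adjusted p 9.86e-05), and without replicate 2 of the +/–dox atria the value was -0.50 and below the fold limit. In log2(TPM + 1), the median difference from +dox atria in the ventricular direction was -0.06 in the MBNL1+MBNL2 cohort for the members and 0.20 for the other genes, and 0.01 against 0.19 in the MBNL1 cohort and -0.04 against 0.07 in the MBNL2 cohort.

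Most members, 73 of the 87, were on none of 45 gene lists. Of these lists, 30 held at least 1 of the 654 genes and 11 held a member, and the red blood cell list had the most, 4 of its 5 pool genes. The cell cycle list had 13 genes in the pool and no member, and fatty acid oxidation and lipid metabolism had 11 and no member. Cholesterol synthesis had 5 and no member, the sarcomere and Z-disc list 8 and 1 member (Tnnt2), and cardiac ion channels and conduction 6 and 1 member (Kcnip2). The ATF4 and amino acid stress list had 2 genes in the pool, Mthfd2 and Gdf15, and both were members, as were the only pool genes of the circadian clock list (Nr1d1), the muscle splicing regulators (Rbfox1), the cytosolic ribosomal proteins (Rpl3l) and the mitochondrial ribosomal proteins (the pseudogene Mrps36-ps2, which was not tested). Zfp36, which binds AU-rich elements in mRNA, was 1 of 3 immediate early genes in the pool, at 6.34 to 9.82 TPM in +dox and 9.98 to 14.6 TPM in +/–dox ventricles. Cox7c-ps1, a pseudogene of a respiratory chain subunit, was the 1 member of 5 pool genes on that list. These counts are small, and the share of members in the whole pool was 13.3%.

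Gene type, length and motifs were compared with the other genes. In GENCODE M21, 84 of the 87 were found, of which 68 were protein coding (81.0%, against 86.7% of the other genes), 7 were long intergenic RNAs and 5 processed pseudogenes, and 10 were on chromosome 4. Another gene overlapped 19 of them on the same strand and 39 on the opposite strand, Cdc123 in the case of Nudt5, and how reads in such overlaps were assigned was not tested. The longest annotated transcript had a median length of 1733 bases in the members and 2838 in the other genes. It held a median of 16.0 YGCY motifs per kb in the members, 16.1 in the other genes of the pool and 14.7 in all genes tested. RefSeq promoters (GRCm38.p6, 250 bases before to 50 after the start) were found for 59 members. The E-box CACGTG, which reads the same on both strands and is bound by transcription factors, among them clock proteins, was in 7 of them (11.9%), in 11.9% of the other pool genes and in 8.09% of 27025 genes. It is shown in capitals in 4 members that sit at this background rate, written 5′ to 3′ in the direction of the gene.
Gdf15 (chr8:70632163-70632188, minus strand): cagggcagggCACGTGtgagcatcca
Mcts2 (chr2:152687047-152687072, plus strand): gtggggtaatCACGTGaggatcagcg
Npl (chr1:153549750-153549775, minus strand): cgcgcggcccCACGTGgtcccgcagc
Pigw (chr11:84880262-84880287, minus strand): gcgcgggacgCACGTGgcccgtccca
A match of these letters is a description and does not show that a factor binds.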

How the data were processed

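The authors made stranded, poly(A)-selected libraries, used STAR 2.7.10b for alignment (mm10) and RSEM 1.3.1 with GENCODE M25 for quantification. Each deposited expected count is what RSEM estimated for a gene symbol, without normalization, and each deposited TPM also takes the estimated transcript length into account. The 36 columns of each table were matched to samples by their labels. How genes with the same symbol were merged is not given in the sources used here.

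The rule was applied to TPM with a pseudocount of 1. Tests used edgeR 4.0.16 (limma 3.58.1, R 4.3.3) on rounded expected counts, with TMM normalization, filterByExpr (19231 genes), robust dispersions and 1 mean for each of 12 groups over all 36 libraries. Calls required both an adjusted p (Benjamini-Hochberg) under 0.05 and a change of 1.5-fold or more. The authors used DESeq2 with the same thresholds, and DESeq2 1.42.0 was run as an alternative. Depth was at most 97.1 M per library (median 72.1 M), and all 36 pairs of replicates differed by more than sampling noise (chi-square per degree of freedom of at least 10.3). P-values rest on 3 animals per group.

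The members and lists were chosen with earlier results of these data known. Genes were named by a rule: the 12 largest differences in each direction with at least 5 TPM (symbols of the Gm and Rik forms left out), members on a list with at least 5 TPM, the 10 largest MBNL1 against –dox differences among members called in 2 or more comparisons, and genes at the limits. Anxa5, Agt, Npr3, Gdf15, Mthfd2, Hyal1, Phtf2, Metrn, Cyb5r2, Tbc1d10c, Npl, Depp1, Dctn3, Gm28052, Mrps36-ps2, Gm4735 and Gm49207 were named after their values were seen. Annotation came from GENCODE M21 (GRCm38), which held 96.2% of the symbols. Python 3.11.15 with numpy 2.4.6, pandas 2.3.3 and matplotlib 3.10.9 was used. Alternatives covered tools, filters, samples, covariates and single libraries. Splicing was not analysed here, and some members are not reported here.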

Additional observations from a re-analysis of the deposited data

Results flagged for a closer look

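For 3 members the tissues differed in direction with no overlap between the libraries of the cohorts compared in either tissue. The difference between tissues was not tested. Eno1b, an enolase gene, was higher in +/–dox than in +dox ventricles by 0.73 in log2(TPM + 1) and lower in the atria by -0.22, and –dox mice gave differences of 0.61 (ventricle) and -0.25 (atria). The processed pseudogene Gm4735 gave 0.60 in +/–dox ventricles and -0.34 in atria, and 0.46 and -0.38 in –dox mice. Gm49207 gave 1.18 in +/–dox ventricles and -0.70 in atria, but its ventricular MBNL1 libraries ranged from 2.64 to 17.2 TPM. None of the 3 was called in the atrial comparisons of +/–dox or –dox with +dox mice. Gm4735 is annotated as a processed pseudogene and Gm49207 as a long intergenic RNA, and whether their reads are shared with other copies was not tested.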

How the results depend on the processing

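The rule depended on its settings. It took 148 genes with a pseudocount of 0.1, 55 with a minimum of 5 TPM and 212 when only the second library set was used (1 +dox, 1 +/–dox and 3 MBNL1+MBNL2 libraries), of which 45 were members. Leaving out single libraries gave 73 to 163 genes. The other settings gave 59 to 128 genes, and 78 without 9 members doubted after seeing the data (4 red blood cell genes, 3 genes on chromosome 4 and 2 with identical values). The highest count, 163, came without replicate 1 of the MBNL1+MBNL2 cohort, with the pool at 654 as before. The cause of these shifts was not tested.

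Of the counts of called members, the following moved by more than 1.5 times. In MBNL1+MBNL2 against +dox atria, where the count was 1, it was 3 with DESeq2, 3 with the library set as a covariate, 2 with the adjusted p alone and 2 with only the 6 libraries compared, and 1 to 2 when single libraries were left out. In +/–dox against +dox atria, the count of 28 ranged from 18 to 29 without single libraries, the lowest without replicate 1 of the +dox atria. Without single libraries the other counts were 18 to 23 (MBNL1 against –dox ventricles), 26 to 31 (MBNL2 against –dox), 0 to 0 (MBNL1 against MBNL2), 21 to 32 (–dox against +dox atria) and 20 to 25 (MBNL1+MBNL2 against +/–dox atria). Some other settings went beyond these ranges by less than 1.5 times the main count. MBNL1 against –dox ventricles gave 15 with only the 18 ventricular libraries, 15 with only the 6 compared and 28 with the adjusted p alone. MBNL1+MBNL2 against +/–dox atria gave 32 with DESeq2 and 35 with the library set as a covariate, against 25. The cause was not tested. No named member that was called reversed direction under any alternative, and 88 of 1064 such values lost the call.

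Replicate numbers were not treated as pairs. The correlation of same-numbered deviations was below 0.1 for at least 1 number in every comparison, and at most 2 of 3 samples matched best with their own number. For replicate 3 it was 0.08 to 0.24 in the comparisons without the MBNL1+MBNL2 cohort, where both libraries were of the second set. It was -0.11 and -0.03 in those with that cohort. Whether the library set accounts for this was not tested. With a replicate block the counts were 22, 35, 0, 30, 27, 1 and 27 in the order of the report, and no count moved by over 1.5 times. With 3 animals per group, 3 libraries bear on each mean.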
